A study of Arabidopsis thaliana with 3 samples.

Results

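Nuclear genes of the photosynthetic NDH complex and of cyclic electron flow were followed in the stem base of the Arabidopsis nst1-1 nst3-1 double mutant. They are NdhS (AT4G23890), PIFI (AT3G15840), CRR41 (AT1G51100), CRR28 (AT1G59720) and PGRL1B (AT4G11960). They were taken by locus code from the spots with 1 listed gene, and all 5 were found, each at 1 spot, among 9253 genes with a value on every array. The genes were picked with their mutant over wild-type ratios already known from these arrays, so these ratios are given as a description. They also enter a fit over all genes, but its result for them is no support.

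RNA came from the lowest 4 cm of inflorescence stems 12 to 17 cm tall, from untreated plants grown in 8 h of light and 16 h of dark. The mutant is the nst1-1 nst3-1 double T-DNA insertion mutant, in which the genes of the NAC transcription factors NST1 and NST3 are both disrupted. RNA of 3 mutant samples was compared with wild-type RNA, each on its own two-colour array, so there are 3 ratios per gene. The series describes the mutants as independent lines, and they are numbered 1 to 3 as in the labels, though each has the same pair of allele names. How many wild-type extracts were used was not found in the labels. Mutant RNA was Cy5-labelled for lines 1 and 3 and Cy3-labelled for line 2. Every value below is a log2 ratio of mutant over wild type, not a transcript level. Its direction rests on reading the deposited values as Cy5 over Cy3, and its size on reading them as log10. Neither reading is stated with the values. NST1 and NST3 had no listed spot, so the genotype was not checked through them.

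The chloroplast NDH complex sits in the thylakoid membrane and passes electrons from ferredoxin, reduced by photosystem I, back to plastoquinone. The electrons then return to photosystem I, and the cycle pumps protons without making NADPH. A parallel route depends on the proteins PGR5 and PGRL1. NDH is built from plastid-encoded and nuclear-encoded subunits, needs a set of assembly factors, and depends on RNA editing of plastid ndh transcripts by pentatricopeptide repeat (PPR) proteins. In stems, green cells lie mainly in the cortex under the epidermis.

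NdhS, the subunit that forms the ferredoxin-binding site of NDH, had the lowest ratios of the 5 genes. Its log2 ratio was -0.63 in line 1, -1.06 in line 2 and -0.93 in line 3, which is 1.55-fold, 2.08-fold and 1.91-fold lower than wild type. All 3 lines were below wild type, line 1 by the least. The mean was -0.87 ± 0.22 (SD, n = 3 lines), or 1.83-fold lower. NdhS alone of the 5 genes was at least 1.5-fold lower on all 3 arrays, a pattern found in 3.2% of all genes, and none was at least 1.5-fold higher on all 3 arrays, as 1.12% of genes were. In tissue RNA of this kind, fewer green cells and less transcript per green cell cannot be told apart.

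PIFI, a chloroplast protein required for the NDH-dependent rise of chlorophyll fluorescence after illumination, was also below wild type in every line. Its log2 ratio was -0.61 in line 1, -0.75 in line 2 and -0.45 in line 3. The mean was -0.60 ± 0.15 (SD, n = 3 lines), or 1.52-fold lower. The lowest line was that of the Cy3-labelled mutant, and line 3 was the closest to wild type. PIFI and NdhS were at nearly the same ratio in line 1, where they differed by 0.023, and lay further apart in lines 2 and 3, where NdhS was lower by 0.31 and 0.48.

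CRR41, a stromal factor for the assembly of the NDH arm that takes up electrons, stayed close to wild type. Its log2 ratio was -0.070 in line 1, -0.25 in line 2 and -0.11 in line 3. The sign was the same in all 3 lines, but the mean of -0.14 ± 0.095 (SD, n = 3 lines) was a 1.11-fold difference. For scale, different spots of the same gene, available for 79 genes, spanned a median of 0.24, 0.23 and 0.22 on the log2 scale on the arrays of lines 1, 2 and 3.

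CRR28, a PPR protein needed to edit ndhB and ndhD transcripts, had no common direction. Its log2 ratio was 0.47 in line 1, -0.26 in line 2 and 0.070 in line 3. The lines lay on both sides of 0, and the mean of 0.093 ± 0.36 (SD, n = 3 lines) was smaller than the spread. Of the 5 genes it varied most, with an SD above that of 79.5% of all genes. Its mean was -0.095 without line 1 and 0.27 without line 2.

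PGRL1B, a thylakoid protein that acts with PGR5 in the parallel route, was nearest to no difference. Its log2 ratio was 0.055 in line 1, -0.12 in line 2 and 0.035 in line 3. The lines again fell on both sides of 0, and the mean was -0.011 ± 0.099 (SD, n = 3 lines). Its close homologue PGRL1A was not among the genes measured. Whether the PGRL1B spot also binds PGRL1A transcripts was not tested.

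**Figure D1:**
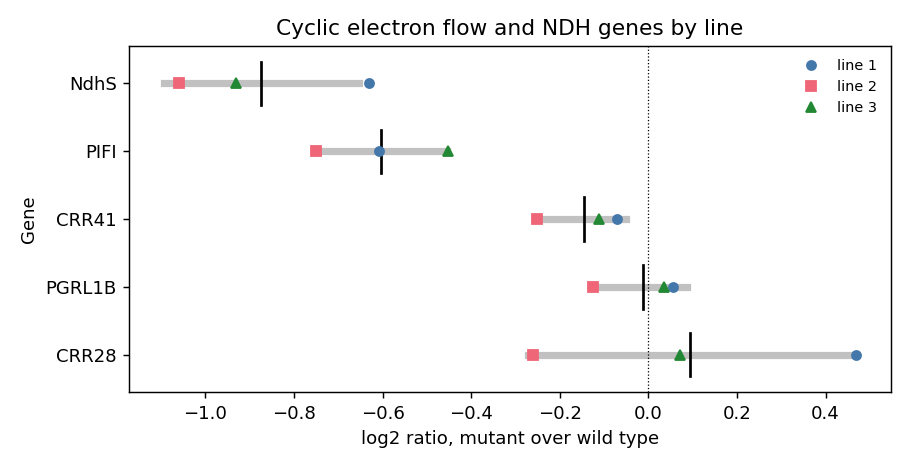
The log2 ratio of mutant over wild type (horizontal axis) is plotted for each of the 5 genes (vertical axis), with 1 symbol per line, a black tick at the mean and a grey bar of ± 1 SD (n = 3 lines). NdhS and PIFI lie left of 0 in every line, with means of -0.87 and -0.60, CRR41 lies just left of 0, and PGRL1B and CRR28 have lines on both sides of it.

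From lowest to highest mean ratio the order was NdhS, PIFI, CRR41, PGRL1B and CRR28. The ranges of NdhS and PIFI over the lines overlapped, and their difference of 0.27 ± 0.23 (SD, n = 3 lines) was barely larger than its spread, though NdhS was the lower in every line. Between PIFI and CRR41 the ranges did not overlap. CRR41 was above PIFI by 0.54, 0.50 and 0.34 in lines 1, 2 and 3, a mean of 0.46 ± 0.11. CRR41 and PGRL1B overlapped in range but kept their order in every line, 0.13 ± 0.013 apart. PGRL1B and CRR28 did not differ beyond their spread, at 0.10 ± 0.28. By mean ratio, NdhS and PIFI were at -0.87 and -0.60, though PIFI was only 1.37-fold lower in line 3. The other 3 genes were within 0.15 of wild type on average.

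Ranks within an array do not depend on how widely its ratios spread. Of all genes, 2.98% had a lower mean ratio than NdhS and 5.52% a lower one than PIFI. For NdhS the share was 8.1% on the array of line 1, 2.59% on that of line 2 and 3.04% on that of line 3. For PIFI the shares were 8.57%, 4.96% and 9.46%. CRR28 moved through most of the range, with 84.7% of genes below it in line 1, 19.0% in line 2 and 58.1% in line 3. For CRR41 and PGRL1B, 24.2% and 45.7% of genes had a lower mean.

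**Figure D2:**
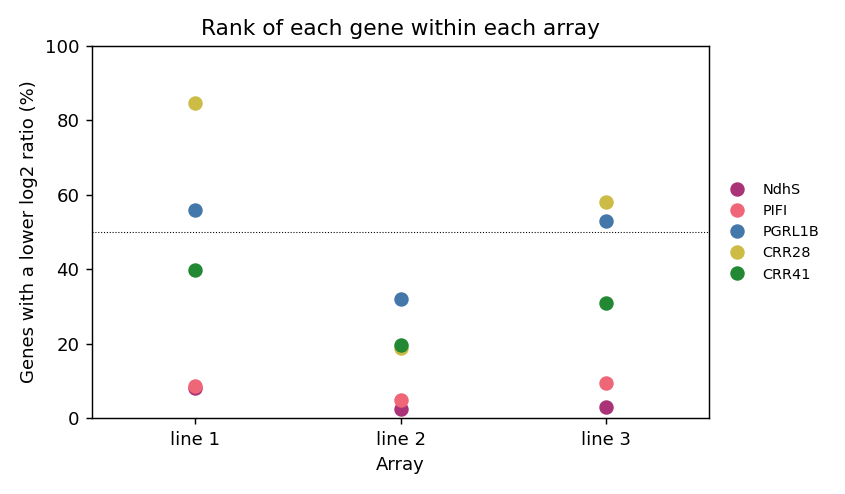
The share of all 9253 genes with a lower log2 ratio (vertical axis, in percent) is plotted for each of the 5 genes on each array (horizontal axis). NdhS and PIFI are under 10% on every array, while CRR28 runs from 84.7% in line 1 to 19.0% in line 2.

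In the limma fit over all genes, with a Benjamini-Hochberg adjusted p under 0.05 as the threshold, 2.6% of genes were called lower in the mutant and 0.789% higher. Of the 5 genes, 1 (NdhS) was on the lower side of that threshold and none on the higher side. NdhS was close to the threshold and did not pass it with a dye term, a robust variance prior or all spots fitted, or without line 2 or line 3. NdhS, PIFI and CRR41 were lower on all 3 arrays, as were 23.9% of all genes, and none of the 5 was higher on all 3, as were 26.2% of all genes. Nothing is read from these counts, since the same ratios were known when the genes were picked.

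The wider pathway was described through 5 lists with 85 other genes, of which 16 were measured. Like the 5 genes, the lists were chosen with earlier results of these data known. By limma, none of the 16 passed the threshold in either direction, while 8 were lower and 3 higher at an unadjusted p under 0.05. Over all genes, 11.9% were lower and 13.9% higher at that level. Their median log2 ratio was -0.28, against 0.013 over all genes. Lower values on all 3 arrays were seen in 12 of the 16 and higher values in 3. Over all genes, 23.9% were lower and 26.2% higher on all 3 arrays.

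Among nuclear NDH subunits, 2 of 19 listed genes were measured besides NdhS. NdhN, a subunit of the same arm of the complex, measured -0.67, -1.55 and -0.28 in lines 1, 2 and 3. All were below wild type, but the spread was wide, with a mean of -0.83 ± 0.65 (SD, n = 3 lines; limma adjusted p = 0.169). AT2G04039, the other listed subunit gene, had a mean of -0.39 ± 0.15 (limma adjusted p = 0.105). None of the 12 listed plastid-encoded NDH subunit genes was among those measured, so the transcripts that CRR28 helps to edit were not analysed here.

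Of 9 listed assembly factors, 3 were measured besides CRR41, and all had ratios below 0 in every line, as had 23.9% of all genes. The lowest was AT5G52780, at -0.61, -1.27 and -1.09 in lines 1, 2 and 3, with a mean of -0.99 ± 0.34 (SD, n = 3 lines; limma adjusted p = 0.0581). Its limma adjusted p was 0.0227 without line 1, where more of all genes were called, 0.288 without line 2 and 0.238 without line 3. CRR42, an assembly factor of the same arm as CRR41, had a mean of -0.44 ± 0.30 and Cpn60beta4, a chaperonin subunit that folds NdhH, one of -0.19 ± 0.10, with limma adjusted p-values of 0.163 and 0.257. Cpn60beta4 thus lay beside CRR41, while AT5G52780 lay beside NdhS.

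The list of the PGR5 route and electron carriers had 7 of 22 genes measured, with a median log2 ratio of -0.35. Its lowest gene, AT2G26500, measured -0.70, -1.28 and -1.07 in lines 1, 2 and 3, a mean of -1.02 ± 0.29 (SD, n = 3 lines), and narrowly missed the threshold (limma adjusted p = 0.0502). Its limma adjusted p was 0.0248 without line 1, 0.28 without line 2 and 0.224 without line 3. Without line 1, 583 of all genes were called lower, against 241 in the main fit. The limma adjusted p of AT2G26500 was 0.0464 with each array centred on its median, where 303 of all genes were called lower. With a dye term it was 0.198. CaS, a thylakoid calcium-sensing protein, was the most even of the list, at -0.43 ± 0.037 (limma adjusted p = 0.0652). NTRC, a plastid NADPH-dependent thioredoxin reductase, was at -0.35 ± 0.10. TROL, a thylakoid anchor of ferredoxin-NADP reductase, was at -0.22 ± 0.14, and NDC1, a plastid NAD(P)H dehydrogenase of another type, at -0.21 ± 0.090. AT5G59400, listed as PGRL2, was at -0.38 ± 0.18 and AT3G61320, listed as VCCN1, at 0.072 ± 0.078. PGRL1B, at -0.011, thus lay nearer in ratio to AT3G61320 than to the other genes of this list, which says nothing on function.

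Among the 4 pathway lists with measured genes, plastid RNA editing factors had the highest median ratio, and CRR28 lay between its measured genes. Of 23 listed, 4 were measured besides CRR28, with a median of 0.45. OTP81 and OTP84, PPR proteins of plastid editing, had means of 0.58 ± 0.26 and 0.33 ± 0.23 (SD, n = 3 lines; limma adjusted p = 0.0918 and 0.190). AT1G73530 was at 0.56 ± 0.19 (limma adjusted p = 0.072). LPA66, a PPR editing factor for a photosystem II transcript, was at -0.16 ± 0.21 (limma adjusted p = 0.445). In line 1 CRR28 was near OTP84, which measured 0.53 there, and in line 2 it was the lowest of the 5, below LPA66 at -0.064. The gene table names 13 genes as PPR or pentatricopeptide genes. Of these, 3 were measured, and all 3 had ratios above 0 in every line, as had 26.2% of all genes. The PPR proteins OTP81, OTP84, LPA66 and CRR28 are not among them, so this count covers only part of the family. PPR596 was at 0.94 ± 0.34, PPR336 at 0.79 ± 0.22 and AT1G62590 at 0.18 ± 0.058. None passed the threshold (limma adjusted p = 0.0627, 0.0535 and 0.252).

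**Figure D3:**
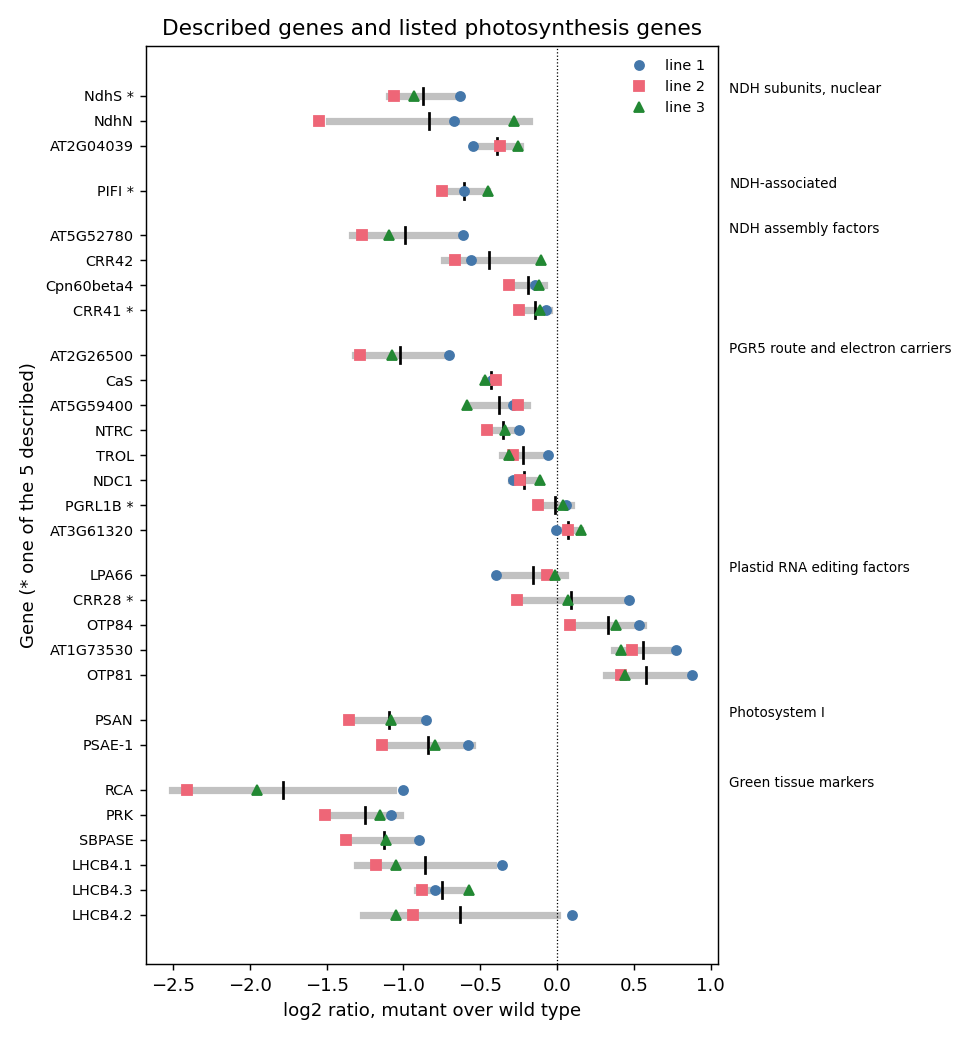
The log2 ratio of mutant over wild type (horizontal axis) is plotted for the 5 described genes, marked with an asterisk, and the measured genes of the pathway, photosystem I and green tissue lists (vertical axis, grouped by list), with 1 symbol per line, a black tick at the mean and a grey bar of ± 1 SD (n = 3 lines). NdhS, at -0.87, lies close to NdhN, PSAE-1 and LHCB4.1, at -0.83, -0.84 and -0.86, while the editing factors OTP81, OTP84 and AT1G73530 lie right of 0 in every line.

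Markers of green tissue had mean ratios below 0 in the same samples. Of 27 listed genes of antenna, photosystem II and carbon fixation, 6 were measured, with a median log2 ratio of -0.99 and a range of means from -1.79 to -0.63, and 3 fell by limma. PRK and SBPASE, enzymes of the Calvin cycle, were both among them, at -1.25 ± 0.23 and -1.13 ± 0.24 on the log2 scale (SD, n = 3 lines; limma adjusted p = 0.0359 and 0.0406), and the antenna gene LHCB4.3 fell by 0.75 ± 0.16 (limma adjusted p = 0.0483). Of 16 listed photosystem I genes, 2 were measured. PSAN, a lumenal subunit, fell by 1.096 ± 0.25 (limma adjusted p = 0.0432), and PSAE-1, a stromal subunit, was at -0.84 ± 0.28 (limma adjusted p = 0.0602). Of the 6 green tissue genes, 5 were below wild type on all 3 arrays, as were 23.9% of all genes. LHCB4.2 was the exception, at 0.096, -0.94 and -1.05 in lines 1, 2 and 3 (limma adjusted p = 0.239). Over all genes, 2.6% were called lower. PRK, SBPASE, LHCB4.3 and PSAN each lost theirs with a dye term, with spots without a listed gene fitted too, without line 2 and without line 3, and LHCB4.3 also with a robust variance prior. The mean of NdhS, -0.87, was inside the range of these 8 genes, that of PIFI, -0.60, just above it, and those of the other genes described here well above it. The part of green tissue content in the ratios of NdhS and PIFI was not tested. Markers of secondary walls were lower still, with all 3 measured of 14 listed called lower and a median of -2.14. Of 10 listed phloem, cambium and epidermis markers, 3 were measured, SWEET11, CLE41 and WSD1, and none was called. Their median was 0.010, but SWEET11 varied widely, at 2.28, 0.16 and -0.50 in lines 1, 2 and 3. The listed cambium genes PXY and WOX4 were not measured. Whether the amount of these tissues differed was not tested.

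Lines 2 and 3 resembled each other more than either resembled line 1, with a Pearson correlation across genes, which are not independent replicates, of 0.784, against 0.488 for lines 1 and 2 and 0.477 for lines 1 and 3. Leaving out each line in turn kept NdhS between -0.99 and -0.78, PIFI between -0.68 and -0.53, and CRR41 between -0.18 and -0.091. PGRL1B, which was near 0 throughout, ranged from -0.045 to 0.045.

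**Figure D4:**
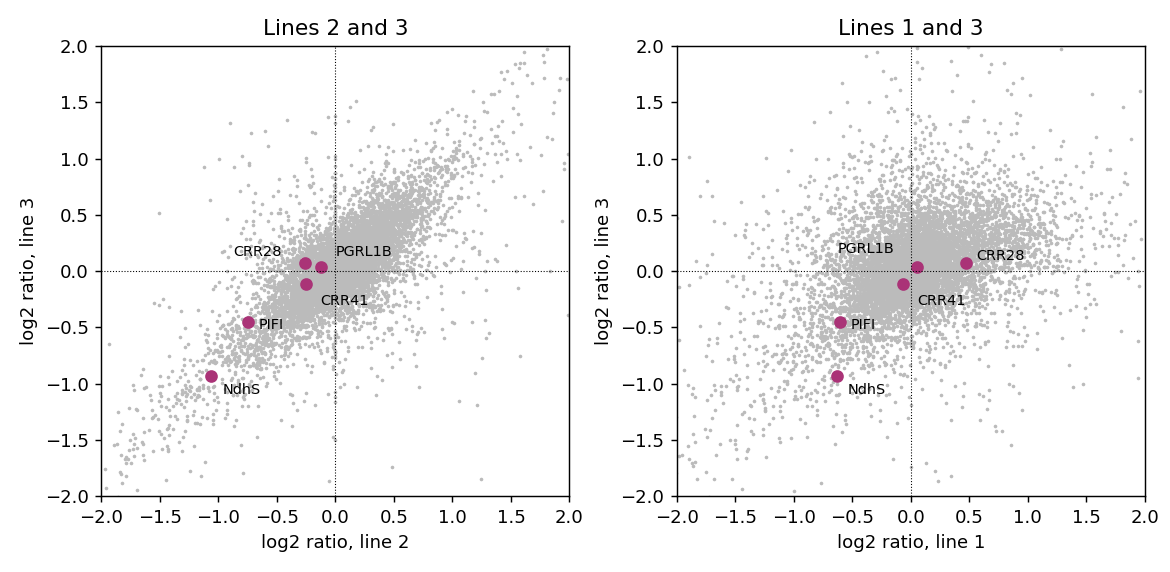
Each grey point is 1 gene, plotted by its log2 ratio in line 2 against line 3 (left) and in line 1 against line 3 (right), with the 5 described genes in purple. Both axes run from -2 to 2. A ratio beyond this range in any of the 3 lines was found for 167 genes, so each panel leaves out at most that many. NdhS and PIFI lie left of 0 and below 0 in both panels, and CRR28 is left of 0 in line 2 and right of it in line 1.

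Line 2, the array with the mutant in Cy3, gave the lowest ratio for each of the 5 genes. With the orientations weighted equally, the mean log2 ratios were -0.92 for NdhS, -0.64 for PIFI, -0.17 for CRR41, -0.040 for PGRL1B and 0.0048 for CRR28. The orientation part, added in 1 orientation and subtracted in the other, was 0.14, 0.11, 0.080, 0.085 and 0.26 in the same order. The difference of line 2 from the mean of the others is 2 times this part. The orientation part was smaller in size than the equally weighted mean for NdhS, PIFI and CRR41 and larger for PGRL1B and CRR28. Before the array of line 2 was turned, the deposited log10 ratios of CRR28 were 0.141, 0.0782 and 0.0212 and those of PGRL1B were 0.0167, 0.0375 and 0.0106. Both were thus positive on all 3 arrays as deposited, as were 7.57% of all genes. With 1 array in the second orientation, dye and line 2 cannot be told apart.

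The genes whose 3 line ratios came closest to each of the 5 were found by Euclidean distance over the lines. AT2G21430 was nearest to NdhS, at a distance of 0.11, with ratios of -0.70, -1.14 and -0.90, and AT1G23040 followed at 0.14. Only 6 genes lay within 0.2 of NdhS. AT5G06370 and PSBY were nearest to PIFI, at 0.046 and 0.049, and 34 genes lay within 0.2. For CRR28 the nearest were AT3G45050 and AT1G18740, at 0.056 and 0.067, with 66 genes within 0.2. PGRL1B and CRR41 sat in the dense middle of the data, with 1137 and 846 genes within 0.2. AT5G43790 and AT2G44240 were nearest to PGRL1B, and AT1G13350 and AT4G22940 to CRR41. A distance over 3 arrays separates few patterns, and nearness here says only that the ratios were alike.

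Of the 10 protein-coding genes next to the 5 loci in the gene table, 2 were measured. AT4G11970, beside PGRL1B, had a mean log2 ratio of 0.036 ± 0.15 and AT1G51090, beside CRR41, one of 0.068 ± 0.14 (SD, n = 3 lines; limma adjusted p = 0.845 and 0.692). Neither passed the threshold. No gene next to NdhS, PIFI or CRR28 was among those measured.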

How the data were processed

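The 5 genes and the lists were chosen with earlier results of these data known. The authors' deposited values, 1 log ratio per spot and array for 22236 spots, were taken to be log10 ratios (Cy5 over Cy3) because their lower bound is exactly -2. Their median was 0 on each array. The labels name no scanner, normalization or genome build. Spot intensities were not used, which leaves signal over background unjudged. The ratio of line 2 was turned and all were converted to log2. Of the spots, 9335 had 1 listed gene, 40 several and 12861 none. Symbols were updated through Entrez identifiers against the TAIR10.1 gene table (9317 of 9335 matched), and spots of 1 locus were averaged to 9253 genes. Plastid genes were also sought by symbol.

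Each gene was tested against 0 with limma 3.58.1 (R 4.3.3; lmFit, eBayes, two-sided), with Benjamini-Hochberg adjustment over all genes. The fit was also run on simulated data with independent noise and planted log2 effects of 3, up or down. These effects were larger than the mean ratio of any of the 5 genes, so the run does not bear on calls near the threshold. The number of arrays, 3, limits the precision, and the wild type has no separate estimate of spread. The 5 genes were named in full. Listed pathway genes were named whether or not called. The other lists were given by counts and medians, with called and uncalled genes named for some. The nearest genes by distance and those next to each locus were also named. The gene table holds no product names, so PPR genes were found through its symbols and synonyms. The search for promoter motifs was not run. Alternatives covered scaling, centring, dye, prior, log base, zeros, spots and left-out lines.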

Additional observations from a re-analysis of the deposited data

How the results depend on the processing

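Each ratio already pairs a mutant with wild type on 1 array and there is 1 group, so no further pairing was applied. Causes were not tested unless the setting's construction gives them. Genes called higher and lower numbered 73 and 241. Higher calls were 175 with arrays scaled to equal spread and 164 with values of exactly 0 left out. With spots without a listed gene fitted too, 3 were higher and 66 lower. Both counts were 0 with a dye term (limma, 761 higher and 831 lower at an unadjusted p under 0.05), which leaves 1 residual degree of freedom, and with line 2 left unturned (44 and 48), where signs oppose by construction. Without 1 line they ranged from 0 to 574 higher and 0 to 583 lower. Both were 0 without line 2 and without line 3, and the largest were without line 1. Of the 16 pathway genes, 0 were called lower in the main fit. The count was 1 with centred arrays (AT2G26500), 2 with zeros left out (AT2G26500 and AT5G52780) and 2 by a 1.5-fold difference on every array with no test. Over all genes, 303, 347 and 296 were lower in those settings, against 241 in the main fit. Without 1 line the pathway count was 0 to 2, the latter without line 1, where 583 of all genes were called lower. None of the 16 was called higher in any fit. The mean ratios of the 5 genes moved by less than their SD in all settings except these: read as log2, NdhS was -0.263, PIFI -0.182 and CRR41 -0.0435, and with line 2 unturned they were -0.167, -0.103 and 0.0229. Of the 5 genes, the number past the threshold was 1 in the main fit and 2 with scaled arrays or zeros left out. Lower calls over all genes were 344 and 347 in those 2 settings, against 241 in the main fit. For the 5 genes the number was 0 with the dye term, the robust prior, all spots fitted, line 2 unturned, or without line 2 or line 3. These counts are no support, since the genes were picked with these ratios known.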
